A study of Mus musculus with 10 samples.

Results

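The extracellular matrix genes described here are 36 collagens, matrix glycoproteins, proteoglycans and crosslinking enzymes of stromal and basement membrane matrix. They were chosen by name, and their array probes were found by matching each probe's accession to the gene symbol through RefSeq. Of the 36 genes, 34 had at least 1 probe and all 34 were tested, among 14478 genes in all. Col6a3, a collagen VI chain, and Col12a1, a fibril-associated collagen, had no matched probe and were not analysed here. The 34 genes had 58 of the 34312 gene probes, and the brightest probe stood for each gene.

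The study compared 7 colon tumors with 3 samples of adjacent normal colon epithelium from 3 CYP1A-humanized mice, animals in which human CYP1A genes replace the mouse ones. All the mice, and so the tumors and the normal samples alike, were kept on AIN93M diet and received 2 doses of 100 mg/kg PhIP by gavage at 6 weeks of age. PhIP is a colon carcinogen formed in cooked meat. They then drank 1.5% DSS (dextran sulfate sodium, a chemical that causes colitis) for 1 week, and went without treatment for a further 8 weeks. The tumors are given as tubular adenomas with a dominant active Ctnnb1 mutation, and the normal samples as wild type for Ctnnb1, all at 16 weeks of age. Mouse 41 (male) and mouse 42 (female) gave 3 tumors and 1 normal sample each, and mouse 43 (male) gave 1 of each. The normal tissue had been exposed to the same carcinogen and colitis as the tumors, so the comparison has no untreated colon. RNA was measured on 1-colour oligonucleotide arrays, and levels below are normalized log2 intensities, whose differences are log2 differences.

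The matrix is the secreted scaffold around cells. Fibrillar collagens form the load-bearing fibres of the connective tissue, and lysyl oxidases crosslink them. Collagen IV, laminins and nidogen form the basement membrane, the sheet on which the colon epithelium and the blood vessels rest. Glycoproteins such as fibronectin link cells to that scaffold, and small proteoglycans coat the fibrils. In the intestine most fibrillar matrix is made by fibroblasts, and basement membrane by epithelial, endothelial and muscle cells as well.

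In every family of matrix genes at least 2 were higher in tumors than in normal colon. Of the 34 genes, 30 passed the test as higher in tumors and 0 as lower (limma with the mouse as a block, Benjamini-Hochberg adjusted p under 0.05), that is 88.2% of the matrix genes, against 25.9% of all genes tested that were higher and 23.7% that were lower. The median difference was 1.31 over the matrix genes and 0.01 over all genes. The share of 25.9% is also the one to set beside the counts per family below. At least 2-fold higher were 22 of the 34, against 5.98% of all genes. In 25 of the 34 every tumor lay above every normal sample, against 21.4% of all genes, and in 28 every tumor lay above the normal sample of its own mouse, against 27% of all genes. The 4 genes that did not pass were Postn, Fbln2, Col6a2 and Efemp1.

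**Figure D1:**
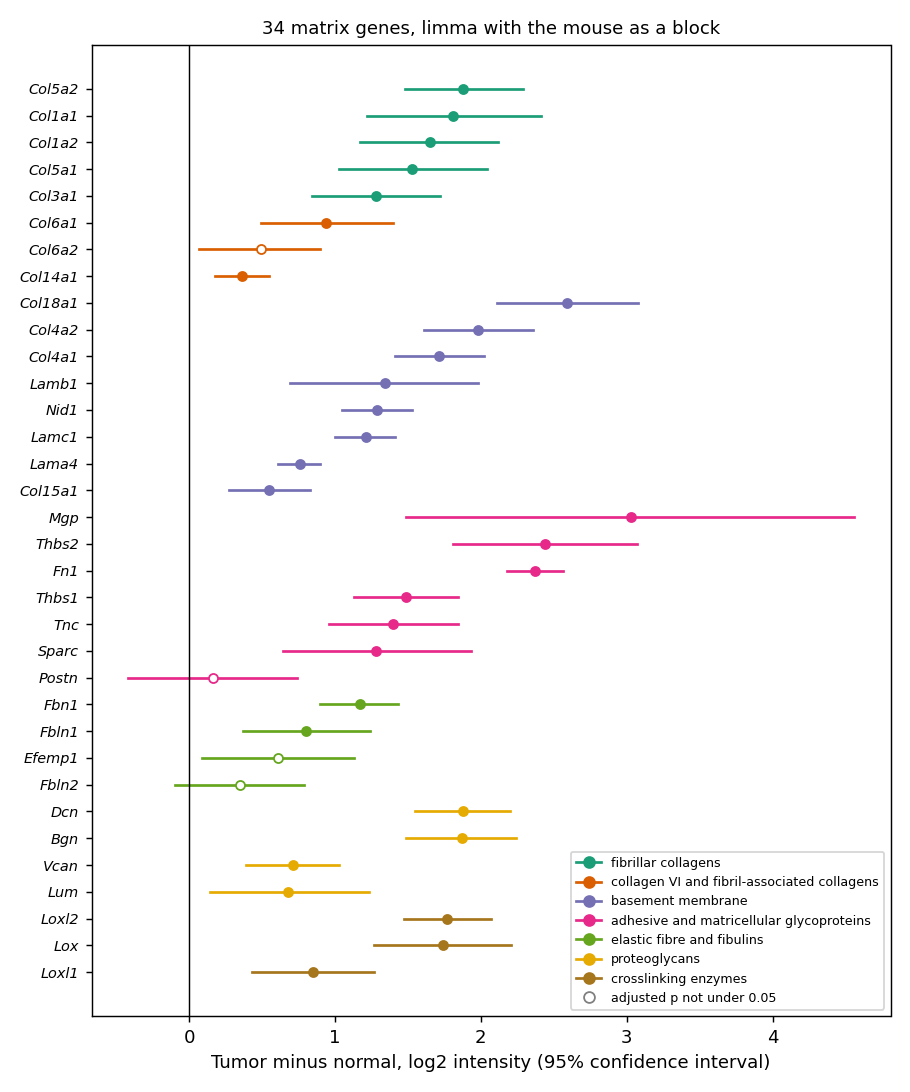
Tumor minus normal difference of each matrix gene (points, log2 intensity on the horizontal axis) with its 95% confidence interval (lines), from limma with the mouse as a block, 7 tumors and 3 normal samples. Genes run down the page by family (colours), and open points mark the 4 genes with an adjusted p not under 0.05. Differences run up to 3.03 for Mgp.

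Marker sums and scan sessions describe the arrays behind these values. Summed over 10 epithelial markers, the linear intensity was 89800 to 114000 in tumors and 116000 to 119000 in normal samples. Squamous epithelium markers summed to 31000 in the tumor of mouse 43 and 23800 in the normal sample of mouse 42, and to between 2070 and 3530 on the other 8 arrays. Of the 7 tumor arrays, 4 were marked as redipped or rescanned and scanned later in the day than all other arrays, and no normal array was in that later session. With the session as a further block 29 matrix genes were higher, and 28 within the earlier session. Of all 14478 genes, 2691 and 1637 were higher in these fits. No median of a matrix gene spot was saturated. The number of arrays limits the precision, and the 7 tumors come from only 3 animals.

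A pair of basement membrane genes shows how some of these genes lie in the genome. Col4a1 and Col4a2, which encode the chains of the main collagen IV trimer, stand head to head on chromosome 8, and their start sites are 21 bases apart. Both were higher in tumors, by 1.71 for Col4a1 and 1.98 for Col4a2. Their promoter windows (250 bases before to 50 after the start, 300 bases in all, from RefSeq on GRCm38.p6) overlap by 78 bases. The pair was picked after its values were seen, and the sequences are shown because the shared stretch lies in both windows. They are given 5′ to 3′ on the strand of each gene, with the shared bases in capitals.
Col4a1, chr8:11312777-11313076, minus strand: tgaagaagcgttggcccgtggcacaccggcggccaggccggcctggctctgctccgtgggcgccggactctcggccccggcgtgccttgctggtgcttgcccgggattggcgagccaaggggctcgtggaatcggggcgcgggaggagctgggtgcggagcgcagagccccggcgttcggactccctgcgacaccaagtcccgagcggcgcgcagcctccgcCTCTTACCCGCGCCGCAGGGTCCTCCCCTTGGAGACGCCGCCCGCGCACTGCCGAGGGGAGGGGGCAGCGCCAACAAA
Col4a2, chr8:11312555-11312854, plus strand: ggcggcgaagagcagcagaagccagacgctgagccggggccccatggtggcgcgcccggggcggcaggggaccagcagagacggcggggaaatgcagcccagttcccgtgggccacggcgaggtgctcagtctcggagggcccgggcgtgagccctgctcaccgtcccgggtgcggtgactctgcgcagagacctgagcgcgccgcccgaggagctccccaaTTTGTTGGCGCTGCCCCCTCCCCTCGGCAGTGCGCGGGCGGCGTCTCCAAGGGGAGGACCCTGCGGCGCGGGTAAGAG

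Windows of this kind were at hand for 21 of the 34 measured genes, 26 windows in all. They were searched on both strands for the GC box (GGGCGG), the TATA box (TATAAA), the CCAAT box (CCAAT), an AP-1 site (TGANTCA), a TEAD site (GGAATG) and a TCF/LEF site (CTTTGA). Matches of different motifs may overlap. The GC box was in 65.4% of the matrix windows, against 35.7% of all 32851 windows, and the matrix windows were also richer in G and C (median 60.0%, against 52.7% of bases). The TATA box was in 19.2% of the matrix windows, against 13.6% of all windows. The shares were 34.6% against 37.4% for CCAAT, 7.69% against 7.81% for AP-1, 15.4% against 14.7% for TEAD and 19.2% against 16.0% for TCF/LEF. A match is a description of the letters and not a bound site, and none of these differences was tested.

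Of the families, the basement membrane and the elastic fibre family had a window for both the gene with the largest and the gene with the smallest difference. For the basement membrane these are Col18a1 (2 start sites) and Col15a1, the closely related collagens that carry endostatin-type domains. Capitals mark the motif matches.
Col18a1 upstream start, chr10:77166481-77166780, minus strand: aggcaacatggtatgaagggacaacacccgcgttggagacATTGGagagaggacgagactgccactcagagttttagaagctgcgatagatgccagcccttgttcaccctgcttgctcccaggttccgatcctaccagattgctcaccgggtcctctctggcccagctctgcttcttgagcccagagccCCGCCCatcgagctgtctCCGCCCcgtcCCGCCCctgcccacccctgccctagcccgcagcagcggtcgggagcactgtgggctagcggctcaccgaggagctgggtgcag
Col18a1 downstream start, chr10:77113656-77113955, minus strand: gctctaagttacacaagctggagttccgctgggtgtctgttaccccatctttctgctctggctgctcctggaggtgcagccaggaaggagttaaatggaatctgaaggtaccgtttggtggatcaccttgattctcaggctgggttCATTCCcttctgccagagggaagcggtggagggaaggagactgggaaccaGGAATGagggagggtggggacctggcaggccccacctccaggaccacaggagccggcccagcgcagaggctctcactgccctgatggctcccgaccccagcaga
Col15a1, chr4:47207762-47208061, plus strand: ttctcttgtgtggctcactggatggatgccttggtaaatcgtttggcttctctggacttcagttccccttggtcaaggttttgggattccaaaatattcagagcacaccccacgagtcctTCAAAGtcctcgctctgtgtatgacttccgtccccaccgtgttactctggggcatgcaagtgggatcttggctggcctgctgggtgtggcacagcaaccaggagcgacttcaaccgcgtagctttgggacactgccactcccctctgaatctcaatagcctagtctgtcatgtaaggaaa

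The upstream Col18a1 window has 3 GC boxes and a CCAAT box, the downstream window has 2 TEAD matches, and Col15a1 has 1 TCF/LEF match. For the elastic fibre family the ends are Fbn1 and Fbln2.
Fbn1, chr2:125506389-125506688, minus strand: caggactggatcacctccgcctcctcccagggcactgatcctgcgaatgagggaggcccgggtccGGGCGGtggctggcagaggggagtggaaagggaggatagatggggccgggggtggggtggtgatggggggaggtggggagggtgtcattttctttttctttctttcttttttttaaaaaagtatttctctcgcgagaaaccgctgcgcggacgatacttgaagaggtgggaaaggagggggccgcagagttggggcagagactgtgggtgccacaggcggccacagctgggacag
Fbln2, chr6:91212514-91212813, plus strand: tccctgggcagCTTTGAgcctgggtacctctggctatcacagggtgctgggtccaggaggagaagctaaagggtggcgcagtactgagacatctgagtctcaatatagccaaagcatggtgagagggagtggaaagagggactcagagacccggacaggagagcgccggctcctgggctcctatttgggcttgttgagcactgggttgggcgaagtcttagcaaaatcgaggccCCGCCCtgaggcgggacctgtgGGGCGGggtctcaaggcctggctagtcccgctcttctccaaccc

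Fbn1 has 1 GC box, and Fbln2 has 2 GC boxes and a TCF/LEF match.

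The fibrillar collagens, the rope-like collagens of connective tissue, all rose: 5 of 5 were higher, with a median difference of 1.65. Col1a1, which encodes the main chain of collagen I, had a lowest level of 10.07, a median of 11.50 and a highest of 12.17 in tumors, against 9.56, 9.39 and 9.46 in the normal samples of mice 41, 42 and 43. The lowest tumor was that of mouse 43, and it still lay above all normal samples. Col1a1 was 3.51-fold higher in tumors (difference 1.81 ± 0.26, here and below with its SE over 7 tumors and 3 normal samples, limma adjusted p = 0.000523). Its partner chain Col1a2 was 3.14-fold higher (1.65 ± 0.21).

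Col5a2, a chain of collagen V, which starts fibrils and sets their width, had the largest difference of the family. Its levels were 8.59 at the lowest, 9.59 at the median and 10.06 at the highest in tumors, against 7.66, 7.54 and 7.41 in normal samples. All tumors lay clear of all normals, and the gene was 3.69-fold higher (1.88 ± 0.18, limma adjusted p = 6.54e-05). Col5a1, the other collagen V chain, was 2.90-fold higher (1.53 ± 0.22). Col3a1, the collagen of pliable tissue, had the smallest difference of the family and was 2.43-fold higher (1.28 ± 0.19). Col3a1 and Col5a2 neighbour each other on chromosome 1 with 0 coding genes between them. When each spot was summarised by its median and not its mean, Col1a1 (1.12, adjusted p = 0.08), Col3a1 (0.88, adjusted p = 0.21) and Col5a1 (1.44, adjusted p = 0.0543) did not pass, and Col3a1 did not pass in the deposited table (0.89, adjusted p = 0.155).

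Collagen VI and the fibril-associated collagens had the smallest median difference of the families, 0.49, and 2 of 3 measured genes were higher, against 25.9% of all genes. Col6a1, a chain of the beaded microfibrils of collagen VI, had 10.25, 11.58 and 11.81 as its lowest, median and highest tumor levels, against 10.31, 10.37 and 10.13 in normal samples. That of mouse 43 lay among the normal samples and the other tumors above them, and the gene was 1.92-fold higher (0.94 ± 0.20, limma adjusted p = 0.00418). Without mouse 41 or without mouse 42 Col6a1 was 0.78 higher and did not pass (adjusted p = 0.0587 and 0.0733), nor did it with tumors averaged within each mouse (0.85, adjusted p = 0.0511).

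Col6a2, the neighbouring gene on chromosome 10, had 7.67, 8.60 and 8.90 in tumors, against 7.79, 8.03 and 7.97 in normal samples. Mouse 43 gave the only tumor below all normal samples, with the other 6 above them, and the difference of 0.49 ± 0.18 did not pass (adjusted p = 0.0538). It passed with no block for the mouse (0.59, adjusted p = 0.0427) and without the tumor of mouse 43 (0.75, adjusted p = 0.00282), and with the spot median it was 0.06. Col14a1, which binds the surface of fibrils, was 1.29-fold higher (0.36 ± 0.08), all tumors above all normals. It missed the threshold in 6 of 28 alternatives, the spot median among them (0.18, adjusted p = 0.179), and with no further background correction it was 0.87.

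The basement membrane genes were all higher: 8 of 8, with a median difference of 1.31. Col18a1, whose protein releases the fragment endostatin, had 11.27, 12.42 and 12.67 as its lowest, median and highest tumor levels, against 9.61, 9.44 and 9.58 in normal samples. Every tumor stood far above the narrow range of the normals, and the gene was 6.03-fold higher (2.59 ± 0.22, limma adjusted p = 3.88e-05). Its second probe was above background in all tumors and in no normal sample, which gave a rise of at least 1.35-fold. With the median over its probes Col18a1 was 1.57 higher. Col15a1, from the same small collagen class, had the smallest difference of the family and was 1.47-fold higher (0.55 ± 0.12), with 1.15 in the deposited table. It did not pass without mouse 41 (0.50, adjusted p = 0.067).

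The collagen IV pair came out higher in all 7 tumors. Col4a2 had 12.17, 13.06 and 13.57 in tumors, against 11.15, 10.84 and 10.85 in normal samples. Col4a1 had 11.04, 11.97 and 12.52 in tumors, against 10.33, 10.20 and 9.83 in normal samples. In both genes all tumors lay above all normals, and mouse 43 gave the lowest tumor. Col4a2 was 3.95-fold higher (1.98 ± 0.17, limma adjusted p = 3.97e-05) and Col4a1 3.28-fold higher (1.71 ± 0.13, limma adjusted p = 3.18e-05). With the spot median Col4a2 was 1.04 higher and did not pass (adjusted p = 0.0562).

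The laminin chains differed in how alike the tumors were. Lamb1, the beta chain of the common laminins, had 8.92, 10.60 and 10.97 in tumors, against 8.91, 8.96 and 8.76 in normal samples. The tumor of mouse 43 lay among the normal samples while the other 6 lay more than a log2 unit above them, and the gene was 2.52-fold higher (1.34 ± 0.29, limma adjusted p = 0.00423). Lamc1, the gamma chain that pairs with it, had 9.63, 9.80 and 9.96 in tumors, against 8.80, 8.62 and 8.18 in normal samples. Here the tumors were close to each other, mouse 43 included, and the gene was 2.31-fold higher (1.21 ± 0.09, limma adjusted p = 2.64e-05). Lama4, a laminin alpha chain of blood vessels, was 1.69-fold higher (0.76 ± 0.06, 1.26 in the deposited table). Nid1, nidogen, which bridges laminin and collagen IV, was 2.44-fold higher (1.29 ± 0.11). With the spot median Lamb1 (1.05, adjusted p = 0.115) and Nid1 (0.75, adjusted p = 0.113) did not pass, and Lamb1 did not pass without mouse 41 (1.09, adjusted p = 0.0682) or mouse 42 (1.11, adjusted p = 0.058).

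Among the adhesive and matricellular glycoproteins, which bind cells or modulate that binding, 6 of 7 were higher, with a median difference of 1.49. Fn1, fibronectin, which joins integrins to collagen, had 11.81, 12.21 and 12.70 as its lowest, median and highest tumor levels, against 10.10, 9.77 and 9.70 in normal samples. All 7 tumors were well above the normals, and the 3 tumors of mouse 41 were the highest. Fn1 was 5.16-fold higher (2.37 ± 0.08, limma adjusted p = 4.69e-06), the lowest adjusted p among the matrix genes. Of its other probes 2 gave 2.21 and 2.05, and the remaining one was above background in every tumor and in no normal sample, at least 1.92-fold higher.

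Mgp, matrix Gla protein, an inhibitor of calcification, had the largest and most variable difference. Its levels were 11.08, 13.66 and 14.37 in tumors, against 11.34, 10.13 and 9.46 in normal samples. The tumors of mouse 41 were spread widely (13.96, 12.99 and 11.08), and the third of them lay below the normal sample of its own mouse, so the groups overlap. Mgp was 8.15-fold higher (3.03 ± 0.68, limma adjusted p = 0.0053), above the own normal in 6 of 7 tumors. It was 2.18 within the earlier scan session (adjusted p = 0.186) and 2.76 without mouse 42 (adjusted p = 0.102). With both arrays of high squamous marker sums left out it was 1.33, in a fit that rests on mouse 41 alone (adjusted p = 0.34).

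Thbs1 and Thbs2 encode secreted thrombospondins that bind CD47 and restrain vessel growth. Thbs2 had 9.26, 9.78 and 10.68 in tumors, against 8.10, 7.21 and 7.07 in normal samples. No tumor overlapped the normals, the tumor of mouse 43 was the highest, and the gene was 5.43-fold higher (2.44 ± 0.28, limma adjusted p = 0.000161). Thbs1 was 2.80-fold higher (1.49 ± 0.16). Tnc, tenascin C, an anti-adhesive protein of remodelling stroma, was 2.63-fold higher by its brightest probe (1.4 ± 0.19), and 0.67 by the median over its probes, of which 3 further tested ones were not above background in any normal sample.

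Sparc, a collagen-binding protein of remodelling tissue, had 7.39, 9.01 and 9.44 in tumors, against 7.42, 7.41 and 6.83 in normal samples. Overlap with the normals came from the tumor of mouse 43, and the first tumor of mouse 42 (7.80) was close to them, while the tumors of mouse 41 were uniformly high. Sparc was 2.43-fold higher (1.28 ± 0.29, limma adjusted p = 0.00507), but 0.30 with the spot median (adjusted p = 0.397), 0.57 in the deposited table (adjusted p = 0.288) and 0.87 without mouse 41 (adjusted p = 0.0822). Postn, periostin, which binds collagen and integrins, had 8.17, 9.59 and 10 in tumors, against 9.10, 9.01 and 8.94 in normal samples. Here 5 tumors lay above all normals, and the tumor of mouse 43 and the first tumor of mouse 42 lay below them. The difference of 0.16 ± 0.26 did not pass (95% confidence interval -0.42 to 0.74, adjusted p = 0.634), and it was -0.10 without mouse 41.

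**Figure D2:**
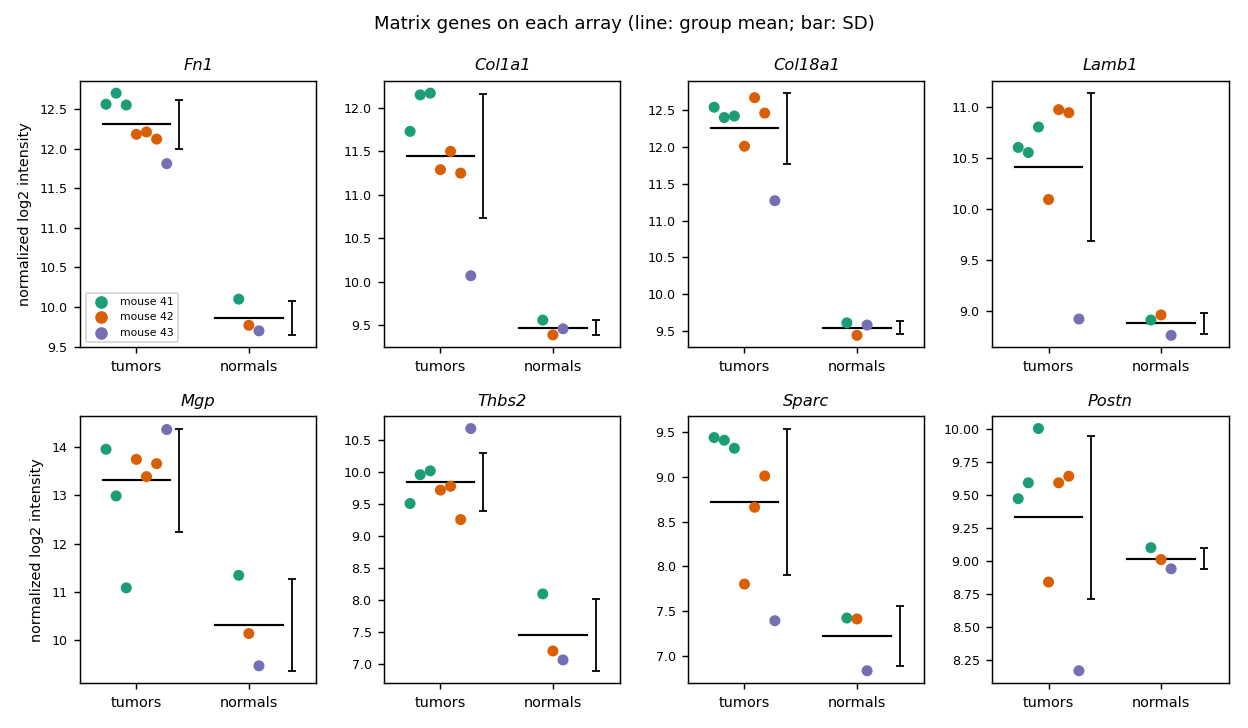
Normalized log2 intensity (vertical axis) of 8 matrix genes on each array, tumors on the left and normal samples on the right of each panel, coloured by mouse, with group means (lines) and SD (bars). Fn1 and Col18a1 tumors stand clear of the normals, while Mgp (11.08 to 14.37), Lamb1, Sparc and Postn tumors overlap them.

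The crosslinking enzymes, which join collagen and elastin chains, were all higher: 3 of 3, with a median difference of 1.74. Loxl2 had 9.91, 10.71 and 11.22 in tumors, against 9.03, 8.67 and 8.61 in normal samples. The groups did not overlap, and Loxl2 was 3.41-fold higher (1.77 ± 0.13, limma adjusted p = 2.72e-05). Lox, lysyl oxidase itself, had 8.95, 9.67 and 10.67 in tumors, against 8.01, 8.16 and 7.66 in normal samples, and was 3.34-fold higher (1.74 ± 0.21). Its 3 highest tumors were those of mouse 41. Loxl1, which acts mainly on elastin, was 1.80-fold higher by its brighter probe (0.85 ± 0.19), while the other gave 0.15 and did not pass (adjusted p = 0.139). It missed the threshold on spot medians (0.90, adjusted p = 0.0662) and within the earlier session (0.77, adjusted p = 0.0706).

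All 4 proteoglycans, core proteins that carry glycosaminoglycan chains, were higher, with a median difference of 1.29. Dcn, decorin, which coats collagen fibrils, had 13.00, 13.65 and 14.12 in tumors, against 11.78, 11.90 and 11.06 in normal samples. The groups were well apart, and Dcn was 3.67-fold higher (1.88 ± 0.15, limma adjusted p = 3.13e-05). Its other probes gave 2.20, 1.75 and 1.19, all higher. Bgn, biglycan, the relative of decorin, was 3.65-fold higher (1.87 ± 0.17).

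Lum, lumican, a fibril-organizing relative that neighbours Dcn on chromosome 10, had 7.02, 8.46 and 8.91 in tumors, against 7.64, 7.31 and 7.10 in normal samples. The tumor of mouse 43 lay below all normals and the other tumors above them. Lum was 1.61-fold higher (0.68 ± 0.24, limma adjusted p = 0.0406) and missed the threshold under 11 of 28 alternatives, among them 5 that left out a single array. Vcan, versican, a large hyaluronan-binding proteoglycan, was 1.63-fold higher (0.71 ± 0.14; above background in 7 of 7 tumors and 2 of 3 normals), with 1.52 under no further background correction, and did not pass without mouse 41 (0.52, adjusted p = 0.0509).

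Of the elastic fibre genes and fibulins 2 of 4 were higher, against 25.9% of all genes, with a median difference of 0.71. Fbn1, fibrillin, the backbone of microfibrils, had 8.15, 8.80 and 9.23 in tumors, against 7.60, 7.65 and 7.25 in normal samples. All tumors were above all normals, and Fbn1 was 2.25-fold higher (1.17 ± 0.12, limma adjusted p = 8.8e-05). Fbln1, a fibulin of microfibrils and basement membranes, was 1.74-fold higher by its brightest probe (0.80 ± 0.19). Its other probes gave 0.46 and 0.28 and did not pass. It also missed the threshold with the session as a block (0.71, adjusted p = 0.0555) and without mouse 42 (0.92, adjusted p = 0.0524).

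Efemp1, another fibulin, had 7.54, 8.98 and 9.33 in tumors, against 8.20, 8.13 and 7.94 in normal samples. The tumor of mouse 43 lay below all normals and the other 6 above them, and the difference of 0.61 ± 0.23 did not pass (adjusted p = 0.0516), but did without that tumor (0.95, adjusted p = 0.00174). Fbln2, a fibulin that binds fibronectin and elastic fibres, had 6.91, 7.40 and 8.07 in tumors, against 7.20, 7.23 and 6.75 in normal samples. The tumors of mouse 42 lay below their normal sample and those of mice 41 and 43 above theirs, and the difference of 0.35 ± 0.20 did not pass (95% confidence interval -0.10 to 0.79, adjusted p = 0.172). Without the normal sample of mouse 42 the difference was 0.68 and passed (limma adjusted p = 0.0232). That difference rests on mice 41 and 43 alone, because the mouse is a block and mouse 42 then has no normal.

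Over the probes, 48 of the 56 tested probes of matrix genes were higher and 0 lower, against 24.8% of the 20054 probes tested that were higher. Among the higher ones, single probes of Col18a1 and Fn1 and several of Tnc were above background in no normal sample. Those probes entered the test through the tumors alone. Of 13 genes with several tested probes, 10 had all of them higher, Col18a1, Fn1 and Tnc included. The like share over all genes with several probes was not counted, so the 10 are a description only. In Fbln1 and Loxl1 the calls of the probes were not all alike.

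The tumor of mouse 43 stood apart from the others. The median difference of the matrix genes from the own normal was 1.56, 1.65 and 1.71 in the tumors of mouse 41, 1.28, 1.48 and 1.42 in those of mouse 42, and 0.88 in that of mouse 43, while the medians over all genes lay between -0.02 and 0.04. In mouse 43 the tumor lay above its normal for 30 of the 34 genes, and in the other tumors for 32 to 34. Its difference was below that of every other tumor for 23 genes (67.6%), against 20.1% of all genes, and above that of every other tumor for 4 (11.8%), against 25.7% of all genes. All 5 fibrillar collagens were among the 23, as were Lamb1 (0.16, against 1.14 to 2.02 in the other tumors) and Col18a1 (1.69, against 2.57 to 3.23). The 4 genes above every other tumor were Mgp (4.91), Thbs2 (3.61), Lamc1 (1.45) and Fbln2 (0.90). With 1 tumor from this mouse there is no test of the difference.

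Per array, the same tumor also lay at the end of the range in some cell type markers. Its fibroblast markers summed to 15700, its endothelial markers to 3520 and its smooth muscle markers to 4170, each the lowest of the tumors. The normal sample of mouse 43 likewise had the lowest of these sums among the normals, at 5200, 2030 and 5000. These are sums per array and not differences from the own normal. In mouse 41 the fibroblast sums were 22300, 25200 and 22900 in tumors and 8190 in the normal sample. In mouse 42 they were 19600, 27100 and 25000 in tumors and 6140 in the normal sample. The macrophage markers of the mouse 43 tumor summed to 10700, where the lowest tumor had 10600, and its squamous markers to 31000, the highest of all arrays. This tumor was also scanned in the later session. The part of these in the matrix values was not tested. Without mouse 43, 32 of the 34 genes were higher, against 3193 of all 14478 genes.

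**Figure D3:**
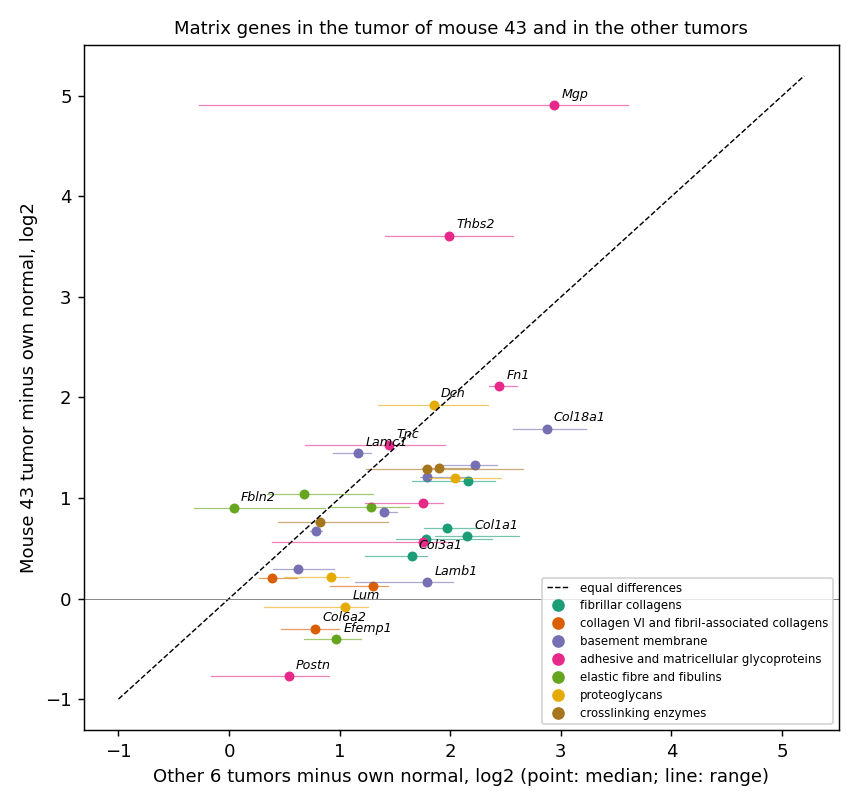
Tumor minus own normal (log2) of each matrix gene in the tumor of mouse 43 (vertical axis) against the other 6 tumors (horizontal axis; points are medians, lines ranges), coloured by family. Most points lie below the dashed line of equal differences, and Mgp (4.91) and Thbs2 (3.61) lie far above it.

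**Figure D4:**
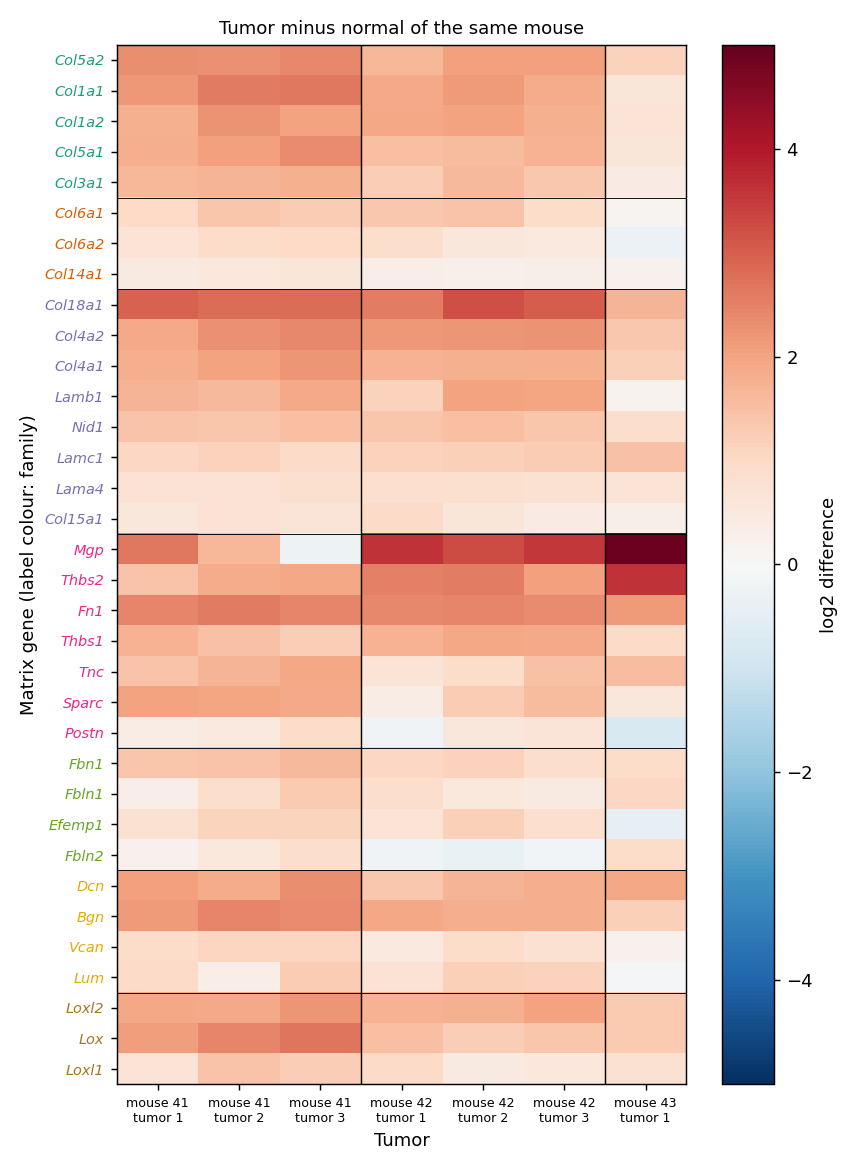
Tumor minus own normal (log2, colour scale) of the 34 matrix genes (rows, by family) in the 7 tumors (columns, by mouse). The column of mouse 43 is paler for the collagens, and Mgp in the third tumor of mouse 41 (-0.27) and Fbln2 in mouse 42 are at or below 0.

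Tumors of mouse 42 were also set against those of mouse 41, 3 against 3. No matrix gene passed in either direction (0 of 34 by limma), against 0.124% of all genes higher and 0.0967% lower, and 14 of the 34 had an unadjusted p under 0.05, against 17.2% of all genes. A higher mean in mouse 42 was found for 5 of the 34, and the median difference was -0.30, against 0.01 over all genes. Lox averaged 9.54 ± 0.13 in tumors of mouse 42 and 10.41 ± 0.30 in tumors of mouse 41 (SD, n = 3 each), without overlap (difference -0.87 ± 0.16, SE, limma adjusted p = 0.0883). Fn1 averaged 12.17 ± 0.04 in tumors of mouse 42 and 12.60 ± 0.08 in tumors of mouse 41 (SD, n = 3 each), also without overlap (-0.43 ± 0.09, limma adjusted p = 0.0997). Median scaling brought 3 genes past the threshold as lower in mouse 42: Lox (-0.97), Col1a1 (-0.80) and Bgn (-0.68). Mouse 42 is female and mouse 41 male, and the effects of sex and of the animal cannot be told apart. The later scan session held the first and second tumors of mouse 42 but only the second of mouse 41. Its part in this comparison was not tested.

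The tumor minus normal differences of the mice were compared as well. None of the 34 passed (limma; 0.0622% of all genes had a higher and 0.338% a lower difference in mouse 42), and 1 of the 34, Lox, had an unadjusted p under 0.05, against 7.15% of all genes. Its tumor minus normal difference was 1.38 in mouse 42 and 2.40 in mouse 41 (difference of differences -1.02 ± 0.31, limma adjusted p = 0.552). The median difference of the matrix genes from the own normal was 1.39 in mouse 42, 1.59 in mouse 41 and 0.88 in mouse 43.

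Matrix genes outside the 36 were taken from separate lists. Over all genes tested, 25.9% were higher and 23.7% lower, the shares to set beside the counts of each list below. Of 16 other collagens tested, 10 were higher and 1 lower (median difference 0.39). The transmembrane collagen Col23a1 was 3.12-fold higher and the fibril-associated Col16a1 2.22-fold higher, and Col9a1, above background in all tumors and no normal, was at least 1.66-fold higher. The further collagens Col2a1 and Col27a1, like Col9a1, were higher but above background in no normal sample, and entered the test through the tumors alone. Col8a1, a network collagen of vessel walls, was the one that fell: it had 7.36, 7.62 and 7.91 in tumors, against 8.89, 10.16 and 9.0 in normal samples, and was 3.28-fold lower (-1.71 ± 0.26, limma adjusted p = 0.000636). The call was lost on the spot median (-1.05, adjusted p = 0.17) and in the deposited table (-1.46, adjusted p = 0.0752).

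Of 41 other matrix glycoproteins and proteoglycans tested, 26 were higher and 2 lower (median 0.66). Of the 26, Vwa1 and Fbn2 were above background in no normal sample and entered the test through the tumors alone. Spon1, a secreted adhesion protein, was 5.27-fold higher (2.40 ± 0.14, limma adjusted p = 1.29e-05), the integrin-binding Tgfbi 3.17-fold and the fibulin Efemp2 2.74-fold. Thbs4, a thrombospondin of muscle and tendon, went the other way from Thbs1 and Thbs2: it had 6.08, 6.44 and 7.08 in tumors, against 8.30, 8.34 and 7.67 in normal samples, all tumors below all normals. Thbs4 was 3.36-fold lower (-1.75 ± 0.14, limma adjusted p = 3.82e-05), and -3.08 with no further background correction. Tnxb, tenascin X, which spaces collagen fibrils, was 1.42-fold lower (-0.50 ± 0.15, limma adjusted p = 0.0194) and missed the threshold in 12 of 28 alternatives.

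Genes of collagen synthesis and processing were mixed: 14 of 26 tested were higher and 3 lower (median 0.40). Bmp1, the procollagen C-proteinase, was 3.19-fold higher (1.67 ± 0.09, limma adjusted p = 1.02e-05). The chaperone Fkbp10 was 2.36-fold higher, the transglutaminase Tgm2 2.10-fold and P3h3, a prolyl hydroxylase family member, 1.71-fold. The 3 that fell, Mia3, Sec24d and Sec23a, act in the export of procollagen from the endoplasmic reticulum, with differences of -0.77, -0.77 and -0.86. None of these 3 passed on spot medians, in the deposited table or without the arrays of high squamous sums.

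Of 22 matrix receptors tested, 10 were higher and 2 lower (median 0.30), against 25.9% and 23.7% of all genes. Cd47, the thrombospondin receptor, was 1.83-fold higher, the hyaluronan receptor Cd44 1.69-fold, the collagen uptake receptor Mrc2 2.24-fold and the syndecan Sdc3 1.77-fold. By the median over its probes Mrc2 was 0.20 higher and did not pass. Sdc2, another syndecan, fell by 0.78 and the collagen-binding integrin Itga2 by 0.50 on the log2 scale, and Itga2 missed the threshold in 17 of 28 alternatives.

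Marker lists of other cell types were described beside the matrix genes, and they did not all move one way. Of 11 fibroblast markers tested, 8 were higher and 1 lower (median 0.86), and their summed intensity was 15700 to 27100 in tumors and 5200 to 8190 in normal samples. The linear sum weighs bright genes most, and Vim was the brightest marker, at 13.45 to 14.27 log2 in tumors and 11.57 to 12.48 in normals. Pdgfra was 3.31-fold higher, Pdpn 3.12-fold, Vim 3.73-fold and Thy1 2.25-fold, while Fap fell by 0.73 on the log2 scale, and Prrx1 was below background on every array. Of 12 endothelial markers 10 were higher and 0 lower, with sums of 3520 to 5820 in tumors and 2030 to 3060 in normal samples. Of 6 macrophage markers 5 were higher and 0 lower (C1qa, C1qb, C1qc, Adgre1 and Mrc1), with sums of 10600 to 16800 in tumors and 4040 to 5240 in normal samples.

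Smooth muscle and pericyte markers split: Mcam, Rgs5 and Notch3 were higher, and Tagln, Myh11, Des and Cnn1 lower, of 11 tested. Myh11 was at 0.01 in the deposited table. Cnn1, above background in 4 of 7 tumors, lost its call in 14 of 26 alternatives, and Des in 6 of 28. The sums of this list overlapped, at 4170 to 9660 in tumors and 5000 to 10900 in normal samples. Of 10 epithelial markers 7 were lower and 1, Krt18, higher (0.42, but -0.08 with the spot median and -0.28 in the deposited table), and of 9 squamous markers 0 were higher or lower. Msln was higher, 1 of 2 mesothelial markers tested, with Wt1 and Lrrn4 below background everywhere. Cfd was lower, 1 of 2 adipocyte markers tested, with Plin1 and Lep below background everywhere. Cfd was above background in no tumor and entered the test through the normal samples alone. The 1 enteric glia marker tested did not pass, with S100b and Gfap below background everywhere. In tissue RNA, more matrix-making cells and more matrix RNA per cell cannot be told apart, and the part of these cell types in the matrix values was not tested.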

How the data were processed

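Gene expression of 7 tumors and 3 normal samples was read on 10 arrays of 38880 spots. The scanner files the authors deposited hold linear spot intensity values that are not normalized, read at 635 nm with GenePix Pro 4.1.1.4 per the file headers. The authors' deposited table covers 19327 probes in linear intensity: set against the scanner values, each column is the spot median less local background, scaled by a factor of its own (column medians 110.2 to 118.9). The choice of its probes is not stated in the sources used here.

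Background was corrected with normexp (offset 50) on spot mean and local background median. The gene probes were quantile normalized, giving log2 values from the deposited intensities. Above background means brighter than the 99th percentile of its array's 432 null spots. A gene entered the tests with its brightest probe if that held on 3 or more arrays. Where a probe was above background in no sample of a group, "at least N-fold" sets the brighter group's mean against, per array, the higher of the probe's own signal and the lowest signal above background. RefSeq (GRCm38.p6) gave the names. The array's own build is not stated in those sources.

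Tumors and normals were compared with limma 3.58.1 (R 4.3.3), the mouse as a fixed block because the labels name each animal. Within a mouse, the deviations of its normal and its mean tumor from the group means correlated at 0.11, -0.067 and -0.078. The fits were tested on simulated data. Tumors of 1 mouse are not independent animals, so p-values measure in part the spread within animals. The matrix genes, the other gene lists and the tests were chosen with earlier results of these data known. All matrix genes are accounted for, and from each other list up to 4 genes with the lowest p and any count of 5 or fewer are named, counts over matrix genes and marker lists included. Alternatives covered background, spot summary, scaling, filter, probe choice, block, scan session, the deposited table and left-out arrays or mice. Figures were drawn with matplotlib 3.10.9.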

Additional observations from a re-analysis of the deposited data

Results flagged for a closer look

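Among the 7 tumors, 12 of the 34 matrix genes had 1 tumor far from the others by Dixon's criterion, which sets the gap to the next tumor against the range of all 7. Chance flags about 1 in 20 such groups, but genes on the same arrays are not independent. Of all genes tested, 8.4% had such a tumor. In 11 of the 12 the outlying tumor was that of mouse 43, and it was the lowest. That is 32.4% of the 34 matrix genes, against 1.21% of all genes tested. Levels of the mouse 43 tumor were 10.64 for Col1a2, 11.35 for Col3a1 and 9.37 for Col5a1 among the fibrillar collagens. They were 11.04 for Col4a1, 12.17 for Col4a2, 9.01 for Nid1, 7.64 for Lama4 and 8.92 for Lamb1 in the basement membrane. They were 10.25 for Col6a1, 7.67 for Col6a2 and 7.54 for Efemp1 in the other families. The next lowest tumors lay from 0.28 (Lama4) to 1.27 (Efemp1) above these levels. This tumor had the highest squamous marker sum of all arrays and was in the later scan session, and the part of either was not tested.

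Mgp stood out in another tumor, the third of mouse 41, at 11.08, where the next lowest tumor had 12.99. Fbln2 moved in opposite directions in the mice: its 3 tumors of mouse 42 lay below their normal sample and its 3 tumors of mouse 41 above theirs. The difference of these differences was -0.74 (mouse 42 minus mouse 41), which did not pass across all genes (limma adjusted p = 0.712).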

How the results depend on the processing

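Over 28 alternatives the 34 matrix genes gave 951 values: 883 kept the call, 47 lost it, 19 gained it and 2 changed sign. The 2 were Postn, at -0.10 without mouse 41 and at -0.10 without the normal of mouse 41. Leaving out other single arrays took Postn up to 0.47. In every alternative 15 matrix genes passed, and the like share of all genes was not counted. The alternatives are not all separate fits. With the mouse as a block, leaving out either array of mouse 43 is the same as leaving out mouse 43. Leaving out the only normal of mouse 41 or 42 takes the tumors of that mouse out of the difference. The count of matrix genes higher in tumors, 30, was lowest with the spot median (20), without mouse 41 (23) and without mouse 42 (24), 26 in the deposited table, 27 with tumors averaged within each mouse and highest at 32, and 0 were lower in any alternative. With no replicate block it was 31, with Col6a2 (0.59) gained. The block changed no other call of a matrix gene. Called differences of matrix genes moved by over 1.5 times for 5 genes on spot medians, for 5 in the deposited table, 4 with the median over probes and 3 with no further background correction. Outside the matrix genes, Krt18 changed sign with the spot median (-0.08) and in the deposited table (-0.28), and Myh11 in the deposited table (0.01).

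Over all genes 3747 were higher and 3438 lower. The counts were 1357 and 1390 with the spot median, 1494 and 1399 in the deposited table, 1637 and 1591 within the earlier session, and 2054 and 1940 without mouse 42. They were 1233 and 1277 without the arrays with high squamous markers, where only mouse 41 has both tissues. The causes were not tested, other than that fewer arrays enter some fits.

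Between tumors of mouse 42 and mouse 41, 18 genes were higher and 14 lower, 0 and 1 with the spot median, 1 and 1 in the deposited table, and 123 lower with median scaling. Leaving out 1 tumor gave 2 to 55 higher and 0 to 56 lower, and 0 to 2 matrix genes lower, 2 without the first tumor of mouse 41. Median scaling gave 3 matrix genes lower. For the difference of effects, 9 were higher and 49 lower, 0 and 9 with the spot median, 0 and 0 in the deposited table, and 14 higher with no filter on dim probes. Leaving out 1 array gave 4 to 12 higher and 25 to 49 lower. Dim probes limit what could be seen: between 57.7% and 66.7% of gene probes were above background on an array.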
